A study of Drosophila melanogaster with 17 samples.

Results

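Spermatogenesis genes, those that the testis uses to make sperm, were followed here in ovaries of wild-type and cuff mutant Drosophila melanogaster. They were 43 genes named for their known use in the testis and looked up by name. The names were chosen with earlier results of these data known, though no measured value enters the rule. Of these, 27 were in the RNA table of 12505 protein-coding genes, and 42 were in the RNA polymerase II (Pol2) table of 13797. The gene rye was in neither table under that name.

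For each assay, RNA-seq and Pol2 ChIP-seq, there were 3 libraries of wild-type and 3 of cuff mutant ovaries, from females aged 2 to 4 days. Each biological replicate held ovaries of about 30 females, so every library is a pool of animals and of all ovarian cell types. The mutant is labelled only as cuff, with no allele named. The series also holds 2 Cutoff ChIP and 3 input libraries, which enter none of the comparisons given here. The tables give 1 value per gene and genotype, called the authors' mean here, so SDs and values of single libraries are not shown and overlap between libraries cannot be judged. The spread between libraries enters only through the p-value of the authors' deposited table. By the headers, that p rests on dispersions, the model's measure of this spread, taken from a fit alone. A gene's own spread between its libraries may therefore not enter its p. Yet genes of like level and change differed in p, as given below for topi and others. What sets a gene's p is thus not fully known from the headers. A gene is counted as changed where that p is 0.05 or less.

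Cutoff works with Rhino and Deadlock in the germline to transcribe piRNA clusters, the source of small RNAs against transposons. In the male germline, spermatocytes switch on a large set of genes for meiosis and sperm building. That switch needs a testis form of the general factor TFIID, made of testis TAF proteins, and the testis meiotic arrest complex, tMAC, a relative of the Myb-MuvB complex found in many tissues. In the female germline, Sex-lethal and heterochromatin proteins keep parts of the male program off.

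The germline markers looked up in these ovaries were present. All 7 (vas, nos, osk, orb, aret, bcd and grk) had wild-type RNA means from 748 to 140529, and 0 of 7 passed the test between genotypes. Not all of them are particular to the female germline. Over all genes the RNA means summed to 89336038 (wild type) and 85598452 (mutant), and those of Pol2 to 51692649 and 50036639. Among the markers of other cell types, 4 of 5 for the muscle sheath were higher in mutant RNA by the deposited p, with summed levels of 11219 (wild type) and 39911 (mutant). In Pol2 1 of the 5 was higher, with sums of 20550 and 31831. For follicle cells 4 of 5 were higher and 1 lower in RNA, with sums of 281042 and 369176, whereas in Pol2 0 were higher and 1 lower, with sums of 182846 and 105695. The gene lower in both was Cp36, with RNA means of 121384.8 and 58941.4 and Pol2 means of 142898.5 and 66143.9. Yp1 had RNA means of 156098.9 and 299855.6. Yp1 and Cp36 make up most of the RNA sums, and Cp36 most of the Pol2 sums. The sums thus say little about the other follicle cell genes. In whole ovaries a changed number of cells of a type and a changed amount of RNA per cell cannot be told apart.

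No spermatogenesis gene was called changed in RNA between genotypes: 0 of 27 passed, against 9.24% of all genes in the RNA table (5.50% higher and 3.73% lower in the mutant). The lowest p of any of them in the authors' deposited DESeq table was 0.1, reached by 3 genes. None was called in Pol2 either, 0 of 42 against 1.46% of all genes (0.812% higher and 0.652% lower), and the lowest p there was 0.2. These are counts over few genes, and 16 of the 27 had RNA means under 50 in both genotypes, so nothing particular to the list is read from them. Counts for the other gene lists named here stand beside the same shares, and a count of 0 in so short a list is not read as a result.

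By RNA level most of the genes were low or not listed, and a smaller set was expressed. Not in the RNA table were 15 of the 42 genes in the Pol2 table, or 35.7%, where 10.3% of all genes in that table were missing from RNA. The headers do not say why a gene is missing, so its absence is not read as a level of 0. A further 12 had RNA means under 10 in both genotypes, and 4 more lay between 10 and 50. The remaining 11, or 26.2%, had a mean of 50 or more in at least 1 genotype, against 63.5% of all genes. Nearest above that limit was tbrd-1, which reached it through the mutant alone (21.8 and 57.4), and of the 27 genes the nearest below was aly (0.9 and 15.9). Taken as Taf12L, the name RefSeq gives it, rye would lie just under the limit, with 46.0 and 2.1.

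**Figure D1:**
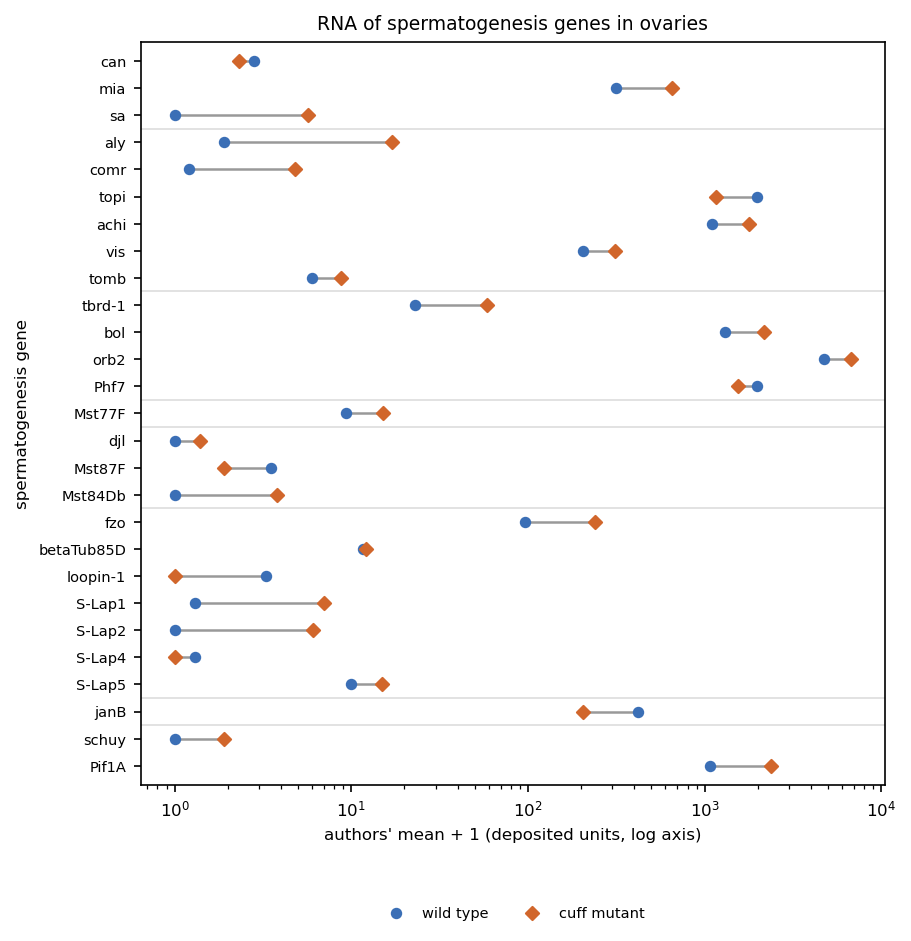
RNA of the 27 spermatogenesis genes in the RNA table, as the authors' mean plus 1 on a log axis, with wild type as circles and cuff mutant as diamonds; grey lines part the role groups. Genes for sperm chromatin, the sperm tail, tubulin and leucyl aminopeptidases sit below 15 in both genotypes, whereas topi, achi, bol, orb2, Phf7 and Pif1A lie above 1000.

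Of the testis TAFs, mia was the only one with an RNA mean of 50 or more. It is the testis relative of Taf6 and had means of 312.5 (wild type) and 656.5 (mutant), a 2.1-fold difference that in the authors' deposited table has p = 0.1. The Taf5 relative can had 1.8 and 1.3, and the Taf8 relative sa was listed at 0 (wild type) and 4.7 (mutant). The Taf4 relative nht was not in the RNA table. For rye, the Taf12 relative, the row named Taf12L has p = 0.3 in the authors' deposited table.

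General TAFs were measured beside them. Per kb of gene span, introns included, the wild-type RNA mean of Taf6 was 1094 against 102 for mia, a 10.7-fold difference. Taf5 stood at 2986 per kb where can stood at 0.562. Taf8, at 554 per kb, had RNA means of 837.5 and 1007.6, where sa was listed at 0 and 4.7.

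The tMAC genes divided into 3 with an RNA mean above 50 and 3 under 16. The zinc finger gene topi had RNA means of 1973.5 (wild type) and 1164.7 (mutant), 1.69-fold lower, and p = 0.7 in the authors' deposited table. There were 36 genes whose wild-type mean differed from that of topi by at most 25% of the smaller one and whose log2 change was within 0.1 of its own. All 36 had a lower p in the authors' deposited table, between 0.05 and 0.4. Such genes also mostly had a lower p at orb2 (89 of 91 lower and 2 higher) and at fzo (8 of 9 lower and 1 higher). The reverse was seen at tbrd-1, where all 14 such genes had a higher p, at achi (2 of 26 lower and 17 higher) and at bol (4 of 26 lower and 18 higher). Why p differs among genes of like level and change was not tested. The homeodomain gene achi had means of 1102.8 and 1781.8 (p = 0.2 in the authors' deposited table), and its neighbour and near-copy vis had 203.1 and 308.2 (p = 0.6 there). Reads from sequence that achi and vis share could be split between them or lost, so the level of each is uncertain.

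The other tMAC members had low RNA means. The RNA mean of aly was 0.9 in wild type and 15.9 in the mutant, that of comr 0.2 and 3.8, and that of tomb 5.0 and 7.7, with p of 0.5, 1 and 1 in the authors' deposited table. The relatives of aly and tomb in the general complex, mip130 and mip120, had wild-type means of 13510.4 and 34570.5. Of 9 genes for subunits of the general Myb-MuvB complex, lin-52 was the only one to pass, with 5850.3 (wild type) and 2802.2 (mutant), lower in the mutant (p = 0.01 in the authors' deposited table), and 8 did not pass.

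Regulators of male germ cells were among the expressed genes. The CPEB-type RNA-binding gene orb2, which acts in sperm differentiation and in memory, had RNA means of 4758.3 (wild type) and 6729.8 (mutant). Its RNA p in the authors' deposited table was 0.7. The wild-type RNA mean of orb2 was the highest of the list. Per kb of gene span, introns included, it was 274, under those of topi (699), janB (565), Phf7 (359) and achi (312). The span of orb2 is 17.4 kb, beside 2.82 kb for topi and 0.745 kb for janB. That order therefore depends on span and is not an order of RNA level alone. The meiotic regulator bol (Boule), an RNA-binding protein that promotes entry into the meiotic divisions of males, had 1305.0 and 2154.1, a 1.65-fold difference with p = 0.1 in the authors' deposited table. Phf7, a PHD-finger gene that promotes male identity in germ cells, had means of 1966.4 and 1538.5, and p = 0.7 in the authors' deposited table. The testis bromodomain gene tbrd-1 had 21.8 and 57.4, with p = 0.4 in the authors' deposited table. One value per gene does not part the transcripts of a gene, so which Phf7 transcript was measured is not known.

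No change was called among genes known for keeping the male program off in females. Of 9 such genes, among them egg, wde, Sxl, otu and ovo, 0 passed in RNA and 0 in Pol2, beside 9.24% and 1.46% of all genes. With 9 genes, counts of 0 lie near those shares and are not read as a result about these genes. The lowest RNA p among them in the authors' deposited table was 0.06, for wde, a partner of the histone methyltransferase Eggless, with means of 9641.6 and 15511.8. Sxl had 26984.0 and 30959.5.

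Genes for sperm chromatin and the sperm tail had low RNA means or were not listed. The protamine genes Mst35Ba and Mst35Bb were not in the RNA table, and the linker-histone-like gene Mst77F had RNA means of 8.3 and 14.1. Of 9 genes for sperm tail proteins, djl, Mst87F and Mst84Db were in the RNA table, at 0 and 0.4, 2.5 and 0.9, and 0 and 2.8. The others were dj, Mst84Da, Mst84Dc, Mst84Dd, Mst98Ca and Mst98Cb. The smallest mean above 0 that the RNA table lists is 0.2, so values of this size stand for very few reads and no fold is given for them.

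Mitochondrial and cytoskeletal genes of the spermatid differed in level. The mitofusin gene fzo, which fuses mitochondria in the early spermatid, had RNA means of 95 (wild type) and 238.7 (mutant), a 2.51-fold difference with p = 0.4 in the authors' deposited table. Its general relative Marf had 13224.2 and 13930.7, and per kb of gene span the wild-type RNA mean of Marf was 66.9-fold that of fzo. The testis tubulin gene betaTub85D had RNA means of 10.6 and 11.1. Its relatives were abundant, betaTub56D with 49820.7 and 39416.6, and betaTub60D with 5014.0 and 11037.1 (p = 0.008 in the authors' deposited table). The leucyl aminopeptidase genes S-Lap1, S-Lap2, S-Lap4, S-Lap5 and loopin-1, whose products are abundant in sperm, had RNA means of at most 13.9, and S-Lap3 was not in the RNA table. S-Lap1 had 0.3 and 6.0, S-Lap2 0 and 5.1, S-Lap4 0.3 and 0, and S-Lap5 9.0 and 13.9. As with achi and vis, reads shared by close copies in the S-Lap, Mst84D, Mst98C and Mst35B families could be split or lost, so the level of any 1 copy is uncertain.

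In the janus region a testis gene was measured beside its general relative. The testis gene janB had RNA means of 420.7 (wild type) and 202.8 (mutant), 2.07-fold lower, and p = 0.2 in the authors' deposited table. The adjoining gene janA, from which janB descends by duplication, had 15722.5 and 16356.0, and its span covers 14.4% of that of janB. The third gene of this group, ocn, next to janB, was not in the RNA table.

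Genes transcribed after meiosis include the comet genes, named for RNA that gathers at the ends of spermatid tails. The comet genes hale, boly, sunz and soti were not in the RNA table, and schuy was listed at 0 in wild type and 0.9 in the mutant. Pif1A had 1069.0 and 2368.1, a 2.22-fold difference that in the authors' deposited table has p = 0.1. The gene Pif1B carries exactly the same values as Pif1A in both tables and covers 100% of its span, so this is a single measurement of 2 genes. Among 12 other genes of like level and change, 11 had a lower deposited p than Pif1A, and 9 of them had 0.05 or less.

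Overlapping genes touch other values too. Of the 43 genes, 13 overlap another protein-coding gene in the RefSeq Release 6 annotation, and 8 of these lie within it for 95% or more of their span. For fzo the enclosing gene is cnc, with RNA means of 28617.7 and 31199.6. For orb2 it is CG43783 (10665.7 and 13876.8), which covers 98.9% of it, and for sa it is rgn, with 5159.6 (wild type) and 12594.5 (mutant), higher in the mutant (p = 4e-04 in the authors' deposited table). The sources used here do not say if reads were counted by strand, so reads of such a pair cannot be told apart with certainty, and their part in the values of fzo, orb2 and sa was not tested.

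The mutant means of the list were more often above than below the wild-type means, though no gene passed. In RNA 20 of 27 were higher and 7 lower, with a median log2 change of 0.69 (pseudocount of 1), beside 51.1% of all genes higher and a median of 0.02. All genes of low RNA level leaned the same way: of those in both tables, 64.3% of genes between 10 and 50 were higher, with a median of 0.69, and 54.1% of genes under 10, with a median of 0.21. Since tbrd-1 reached 50 through the mutant alone, the expressed genes were also taken by their mean over both genotypes, a choice made after its values were seen. Of the 10 genes then left, 7 were higher and 3 (topi, Phf7 and janB) lower, with a median of 0.65. Of the 8615 genes of the RNA table chosen in the same way, 47.8% were higher, with a median of -0.03. Those 8615 genes are not matched to the list on RNA level. The 16 genes under 50 had summed RNA means of 41.2 (wild type) and 88.6 (mutant), a difference to which aly (0.9 and 15.9) adds most. Of these 16, 5 were listed at 0 in wild type and 2 in the mutant, beside 591 and 649 of all genes. Male accessory gland genes, whose products reach mated females in the ejaculate, were also low: 11 of 16 were in the RNA table, with summed means of 43.5 and 118, 3 at 0 in wild type and 0 passing. Of 2 spermatheca markers, Send1 was in the RNA table, with 798.9 (wild type) and 0.3 (mutant). It passed as lower in the mutant, with p listed as 0 in the authors' deposited table. The part of these tissues in the values of the low genes was not tested.

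Of 35 other spermatogenesis genes outside the list, 22 were in the RNA table, 0 passed, and 17 of the 22 were under 50 in both genotypes. Their median RNA change was 0.20 on the log2 scale, and their RNA means summed to 22413 (wild type) and 18729 (mutant). The 5 above that level, named here after their values were seen, were the meiotic Cdc25 gene twe (14597.9 and 11181.7), m-cup (4901.2 and 5082.4), ntc (2671.5 and 2163.1), r-cup (81.8 and 104.4) and the RNA-binding gene Rbp4 (60.3 and 56.2).

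In Pol2 31 of the 42 genes had a higher and 11 a lower mean in the mutant, with a median log2 change of 0.31, beside 58.5% higher and 0.08 for all genes. The 31 genes without an RNA mean of 50 had wild-type Pol2 means from 45.3 (Mst84Dd) to 583 (S-Lap2), with a median of 228. Longer genes collect more ChIP reads, so levels were also taken per kb of gene span. On that scale the 31 had a median of 150. Of the 1426 genes of the Pol2 table that were not in the RNA table, the 1414 with a RefSeq length had a median of 140. Between the 5th and 95th percentile of those 1414 genes, 49.2 and 273 per kb, lay 27 of the 31. The 3 above were sa (381), ocn (310) and tomb (300), of which sa lies within rgn and tomb partly within Cap-D3, a gene with Pol2 means of 5399.8 and 5234.8. The 1 below was Mst35Bb (43.9). The Y-linked fertility genes kl-2, kl-3 and kl-5, named after their values were seen, had Pol2 means of 8.0 and 15.1, 11.9 and 2.1, and 1.2 and 3.4, all under the lowest mean of the list.

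**Figure D2:**
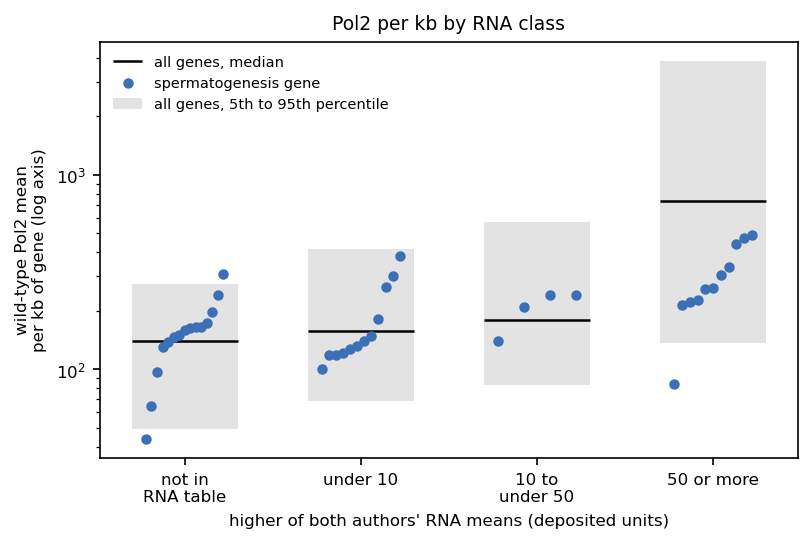
Wild-type Pol2 mean per kb of gene span (log axis) in 4 classes of RNA level, with each spermatogenesis gene as a point. All genes of the class that have a RefSeq length are a grey bar from the 5th to the 95th percentile, with their median as a line. Points of the 3 lower classes surround the medians of all genes, whereas the 11 expressed genes all lie below the median of 734 for their class, 10 of them inside its bar.

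The wild-type Pol2 per kb of the expressed genes of the list ran from 83.5 (vis) to 489 (orb2), with a median of 261. Of all 8764 genes of that RNA class in the Pol2 table, the 8653 with a RefSeq length had a median of 734. Between the 5th and 95th percentile of that class, 137 and 3851 per kb, lay 10 of the 11, and vis was below. The class is not matched to the list on RNA level within it. Above the 95th percentile of genes missing from RNA stood 5 of the 11: orb2, topi (471), fzo (440), janB (336) and Phf7 (306). For fzo, orb2 and janB an overlapping gene carries Pol2 of its own, with means of 34870.5 and 34139.8 at cnc. The genes bol and Pif1A had high Pol2 means, 9456.9 and 5969.2 in wild type, yet 257 and 222 per kb, since they span 36.8 and 26.9 kb.

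**Figure D3:**
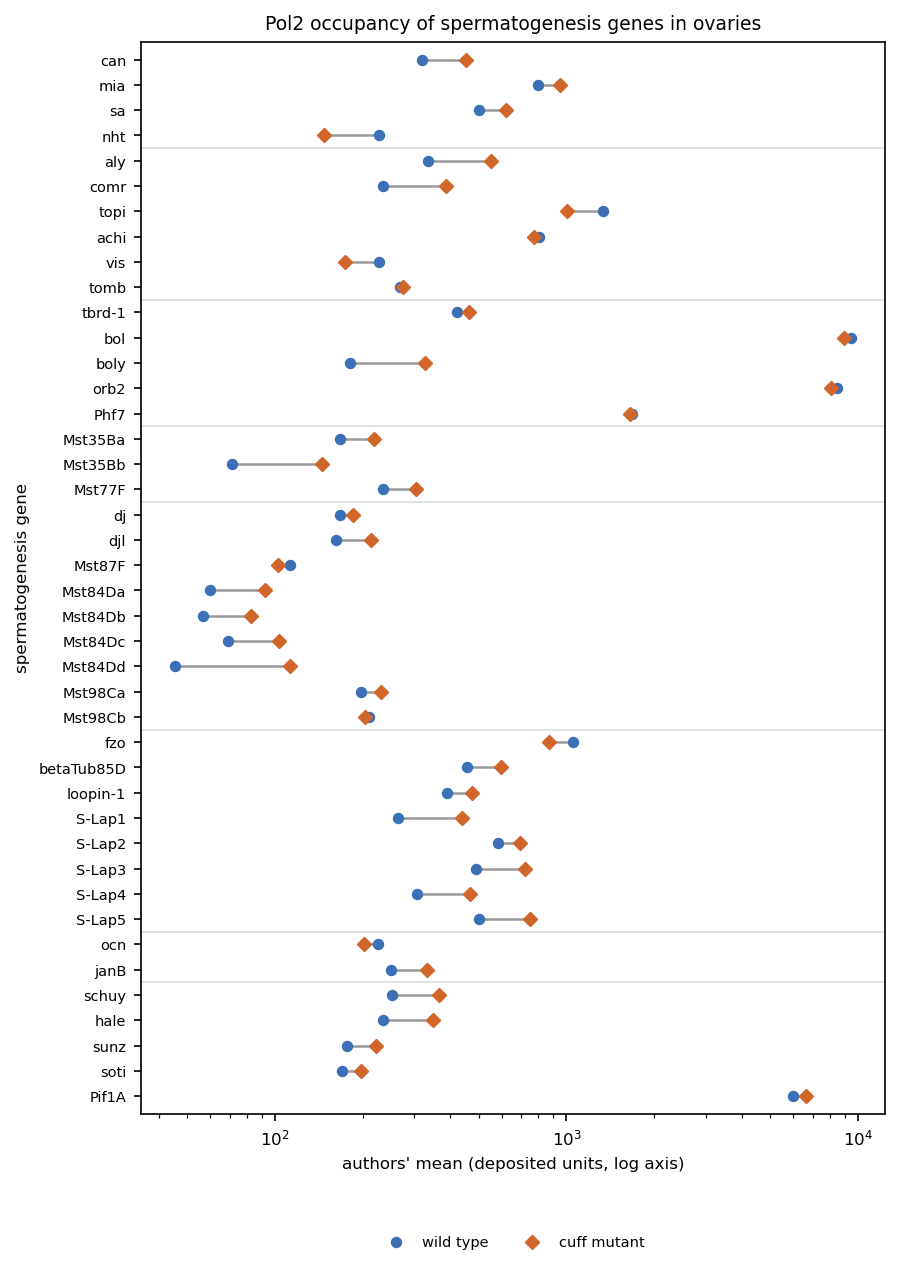
Pol2 occupancy of the 42 spermatogenesis genes in the Pol2 table, as the authors' mean on a log axis, with wild type as circles and cuff mutant as diamonds; grey lines part the role groups. Most genes without an RNA mean of 50 have a mutant mean to the right of the wild-type mean, with the widest gap at Mst84Dd (45.3 and 112.6).

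In the mutant 27 of the 31 genes without an RNA mean of 50 had a higher Pol2 mean and 4 a lower one, with a median log2 change of 0.39. The same lean was seen in all genes of those classes. Of the 1426 genes missing from RNA 86.8% were higher, with a median of 0.55, and of the 2289 under 10 in RNA 89.1%, with a median of 0.46. The leucyl aminopeptidase genes S-Lap3 (490.9 and 718.9) and S-Lap5 (502.8 and 751.7) had p = 0.4 in the authors' deposited table, as did boly (180.7 and 328.4). Mst84Dd had the lowest p of the list in that deposited table, 0.2. The other genes of the Mst84D cluster, which are direct neighbours, had Pol2 means of 60.1 and 92.7 (Mst84Da), 56.7 and 82.8 (Mst84Db), and 68.9 and 103.5 (Mst84Dc). The protamine genes Mst35Ba and Mst35Bb had 167.6 and 217.9, and 71.1 and 144.8. Those with a lower mean were nht (227.9 and 147.9), Mst87F (112.8 and 102.4), Mst98Cb (210.1 and 204.3) and ocn (225.9 and 202.0).

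Among the 11 expressed genes 4 had a higher and 7 a lower Pol2 mean in the mutant, with a median log2 change of -0.05, the same as the median of all genes of that RNA class. For 5 of the 11 RNA and Pol2 leaned the same way. RNA of topi differed by -0.76 and Pol2 by -0.41 on the log2 scale, from Pol2 means of 1330.1 and 1000.3. At mia Pol2 had 797.9 and 952.7, at bol 9456.9 and 8974.7, and at orb2 8487.8 and 8056.8. At fzo RNA differed by 1.32 and Pol2 by -0.27, and at janB RNA differed by -1.05 and Pol2 by 0.41. None of these Pol2 differences passed, with p between 0.6 and 1 in the authors' deposited table. The difference between the RNA and the Pol2 change of a gene was not tested.

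**Figure D4:**
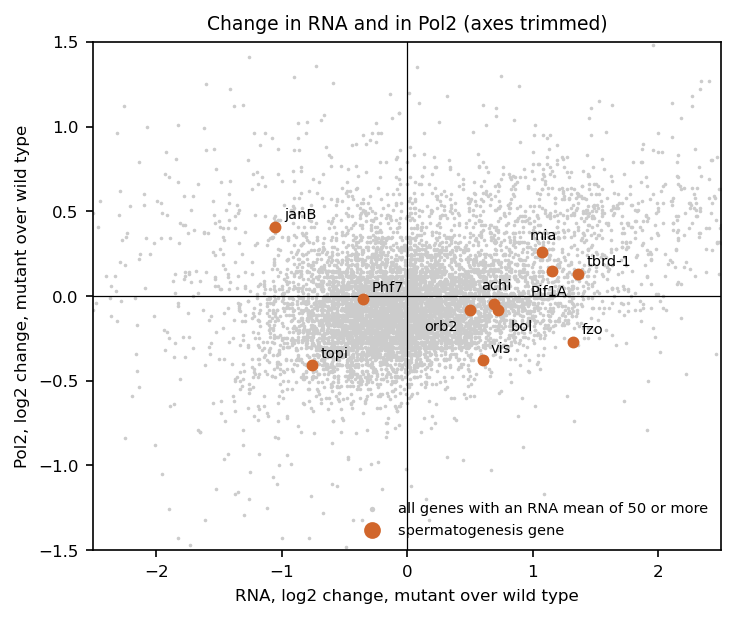
Log2 change in RNA (horizontal) and in Pol2 (vertical), mutant over wild type, for the 11 expressed spermatogenesis genes (orange) over all 8764 genes with an RNA mean of 50 or more in both tables (grey), of which 261 lie beyond the axes. RNA changes run from -1.05 (janB) to 1.32 (fzo), or to 1.36 with tbrd-1, which reached an RNA mean of 50 through the mutant alone, and Pol2 changes run from -0.41 to 0.41.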

How the data were processed

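Each gene table is, per the file headers, output of DESeq with pooled dispersions taken from a parametric fit alone. The submitters' processing notes name DESeq 1.16.0 and build dm3. The annotation, and whether counting used strand, are not given in the sources used here. Per genotype the authors deposited 1 signal value a gene, taken here as the mean over 3 libraries of counts scaled by size factor, a reading no header states. The authors also deposited a log2 fold change and a p-value of 1 digit, and no source used here tells if that p is adjusted. Depth per library is unknown here, so no intervals are given.

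Log2 changes were computed with a pseudocount of 1 in Python 3.11.15 with pandas 2.3.3, and folds only where both means were at least 50. Gene spans, introns included, came from RefSeq Release 6 for 12356 RNA and 13638 Pol2 genes, and may differ from those the authors counted. The members and lists were chosen with earlier results of these data known. Values are given for every member with an RNA mean of at least 50, and for others by list, family or range. The planned fits on replicates could not be run on merged values. The adjustment was tested on simulated data. Cutoff peaks lie on dm3, for which no gene positions were used here, so they were not placed at these genes.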

Additional observations from a re-analysis of the deposited data

How the results depend on the processing

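No spermatogenesis gene passed in RNA or Pol2 at the reported threshold. A deposited p of 0.01 or less, a further Benjamini-Hochberg adjustment over all genes (lowest adjusted p 0.648 in RNA and 1 in Pol2), an added 2-fold difference, a mean of at least 50 and leaving out overlapping genes can only remove calls, so their counts of 0 say nothing about stability. Taking rye as Taf12L, an alternative chosen after the data were seen, could have added a call and added 0. The median RNA change of 0.69 was 0.40 with a pseudocount of 10, which by construction shrinks changes of low genes, and lay between 0.60 and 0.75 otherwise. The median Pol2 change of 0.31 lay between 0.23 and 0.36. Of 88 recomputed changes of the 11 expressed genes, the Pol2 change of Phf7 turned sign, from -0.02 to 0.03 with both genotypes scaled to the same sum. No paired analysis was possible because the tables hold 1 merged column per genotype. For the same reason edgeR and DESeq2 on counts, and leaving out libraries, were not run, so it is not known whether 1 library sets a value. Depth per library is not known, and what change could be detected in the 16 members under 50 in RNA was not tested.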
